A study of Gallus gallus with 3 samples.

Results

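Solute carriers are the membrane proteins that bring ions, sugars, metals, nucleosides, amino acids, acids and vitamins across the plasma membrane and the membranes of organelles, and their gene symbols start with SLC. A carrier uses a gradient of its own substrate or the gradient of a co-transported ion, or it exchanges its substrate for another. The sodium gradient that many carriers use is kept up by the sodium and potassium pump. In the avian ovary the granulosa cells form a layer around the oocyte that holds no blood vessels, and its nutrients come from the vessels of the theca outside it. The 170 genes described here were chosen by their level: of 262 genes with a symbol of SLC and a digit, 177 reached an FPKM (reads per length of gene and per library total) of 1 or more in 1 library or more, and 7 of them, found under a set list of 8 names, were left out. They stand among 19309 genes with a value. The members nearest above the limit were SLC4A3, with a highest FPKM of 1.01, SLC5A10 with 1.09 and SLC36A4 with 1.11, and those nearest below it were SLC5A11 with 0.991, SLC6A2 with 0.870 and SLC16A13 with 0.855. Of the 85 genes under the limit, 11 had no reads in any library. Since the members were chosen from these same values, being expressed is no result.

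The libraries were made from the poly-A RNA of chicken (Gallus gallus) granulosa cells, taken from the follicle without culture. Follicles of 6 mm are not yet selected for ovulation and came from hens labelled 10 to 15 months old, F5 follicles are early preovulatory and grow fast and carry an age of 10 to 16 months, and F1 follicles are the next to ovulate, with an age of 10 to 17 months. The upper ages run 15, 16 and 17 months in the order of the samples, so whether the hens truly differed in age is uncertain. Each stage had 1 library, with no treatment, and the number of hens or follicles pooled in it is unstated in the labels used here. No difference therefore has a replicate check or a test, and brackets after a fold value hold its exact 95% interval, which covers only the error of counting reads. Reads per gene are the smallest whole numbers that fit its FPKM values, so they may be too few and the interval too wide.

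Total reads were 14923359 at 6 mm, 14137511 at F5 and 14086626 at F1, and the members took at least 0.719% of them in 6 mm, 1.05% in F5 and 1.02% in F1. Markers of granulosa cells were present throughout, with a summed FPKM of 1295 at 6 mm, 6328 at F5 and 7781 at F1 over the 7 of 8 listed genes that had a value. These genes differed in direction: STAR, CYP11A1, HSD3B2 and INHA were higher in F1 than in 6 mm, while AMH had 384 at 6 mm, 18.2 at F5 and 0.779 at F1 and FSHR 31.5 at 6 mm, 42.4 at F5 and 16.1 at F1. Markers of other cells stood apart in 6 mm. The theca and smooth muscle list summed to 703 at 6 mm, 26.0 at F5 and 18.2 at F1. In F5, 8 of its 10 genes were lower than in 6 mm, and DCN and PDGFRA were at 0. CYP17A1 of that list had 2.12 at 6 mm, 3.66 at F5 and 0.173 at F1. Surface epithelium markers summed to 153 at 6 mm, 27.4 at F5 and 5.69 at F1 with KRT18 at 0 in F5 and F1, while MSLN of that list had 0.767 at 6 mm, 4.69 at F5 and 2.89 at F1. Oocyte markers summed to 62.9 at 6 mm, 23.2 at F5 and 3.41 at F1. BUB1B alone made 22.6 of that sum at 6 mm, 13.3 at F5 and 2.95 at F1. Leukocyte markers summed to 42.7 at 6 mm, 7.66 at F5 and 2.43 at F1. Of that list BLB1 had 30.3 at 6 mm, 5.46 at F5 and 2.32 at F1, while PTPRC had 0.219, 0.392 and 0.0179. Erythrocyte markers summed to 5.48 at 6 mm, 0.575 at F5 and 0.204 at F1, with the globin genes HBAA, HBAD and HBG2 at 0 in F5 and F1. Endothelial markers summed to 72.6 at 6 mm, 19.0 at F5 and 111 at F1, of which CLDN5 alone made 108 in F1, where TEK and VWF were at 0. The part of these cells in the differences below was not tested, and in bulk RNA fewer cells of a type and less RNA per cell cannot be told apart.

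Which stage held most of the highest values turned with the scaling. As deposited, of the 170 members, 65 (38.2%) had their highest value in 6 mm, 71 (41.8%) in F5 and 34 (20.0%) in F1. Among all genes at an FPKM of 1 or more the shares were 53.0% for 6 mm, 32.2% for F5 and 14.8% for F1. With median-ratio scaling 45 members (26.5%) had their highest value in 6 mm, 44 (25.9%) in F5 and 81 (47.6%) in F1, against shares of all genes of 37.3% for 6 mm, 24.7% for F5 and 38.0% for F1. With the same sum of FPKM 82 members (48.2%) had it in 6 mm, 60 (35.3%) in F5 and 28 (16.5%) in F1, against shares of all genes of 64.3% for 6 mm, 24.6% for F5 and 11.04% for F1. The shares of all genes thus turned with the scaling as well. An FPKM of at least 1 was reached by 155 members in 6 mm, 157 in F5 and 147 in F1, and by 136 in all 3 libraries. Of all 19309 genes with a value, 12070 reached it in 6 mm, 11432 in F5 and 10283 in F1. Members were chosen by this limit, so their counts are partly set by the choice. At least 100 was reached by 4 members in 6 mm, 12 in F5 and 11 in F1, without a count of all genes to set beside it.

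**Figure D1:**
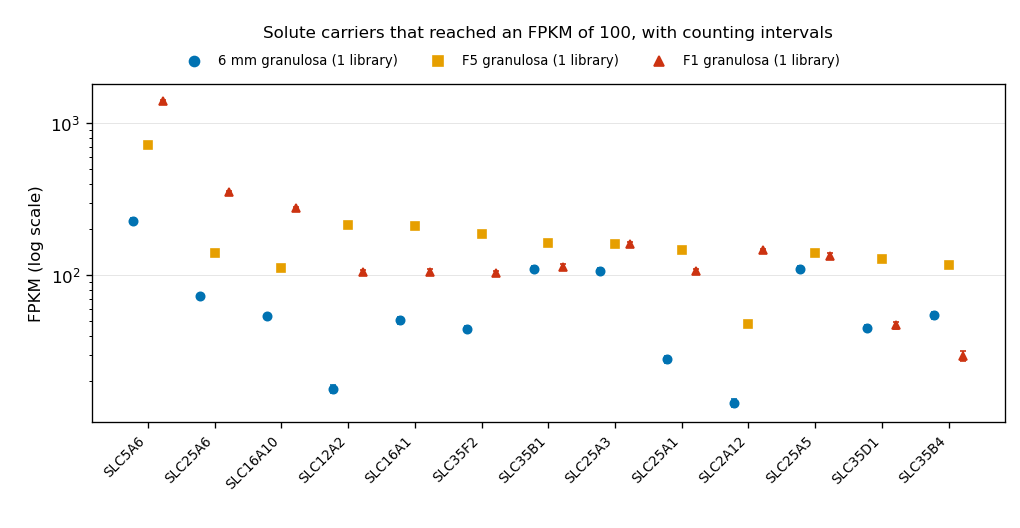
FPKM of the 13 solute carriers that reached 100 in any library, on a log axis, with 1 library per stage (circle 6 mm, square F5, triangle F1) and bars for exact 95% counting intervals. SLC5A6 leads in every library, and SLC12A2, SLC16A1 and SLC35F2 are among several that are lowest in 6 mm and highest in F5.

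A single vitamin carrier led the members in every library. SLC5A6, the sodium-dependent carrier of biotin, pantothenate and lipoate, had an FPKM of 228 at 6 mm, 713 at F5 and 1399 at F1. It was the most abundant member at each stage and made up 7.15% of the members' summed FPKM in 6 mm, 14.5% in F5 and 27.1% in F1. It was 3.13-fold higher in F5 than in 6 mm (3.0 to 3.26) and 6.14-fold higher in F1 than in 6 mm (5.9 to 6.38), and the step between F1 and F5 was just short of the 2-fold limit on the log2(FPKM + 1) scale, at 0.97. Its gene model in the files is a stretch of a scaffold without a chromosome name, from 21 to 1247 on the plus strand (genome build unstated), so its level is per length of that short model. The summed FPKM of all members was 3188 at 6 mm, 4933 at F5 and 5152 at F1, and without SLC5A6 it was 2960 at 6 mm, 4219 at F5 and 3754 at F1. Over all genes the FPKM summed to 520729 at 6 mm, 598608 at F5 and 649313 at F1. Sums of members, classes, families and lists are given without a correction for that rise.

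F5 against 6 mm asked which carriers differ once a follicle has been selected and grows fast. A member was called higher or lower when log2(FPKM + 1) differed by at least 1, which is 2-fold, among members at 1 FPKM or more in either of the pair. Of 165 members compared, 27 were higher in F5 (16.4%) and 14 were lower (8.48%). Among all 12611 genes compared in the same way 7.64% were higher and 10.8% were lower. The median difference was 0.11 for the members and -0.13 for all genes. With all libraries scaled to the same sum of FPKM the members' median turned to -0.08 and that of all genes moved to -0.31. The split of calls moved with the scaling as well, to 19 higher and 20 lower with the same sum, 32 and 11 with median-ratio scaling, and 29 and 13 with upper-quartile scaling. Under all 4 scalings 19 members were higher and 11 were lower.

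F1 against F5 asked which carriers differ between early and late preovulatory growth. Here 14 of 164 members were higher in F1 (8.54%) and 40 were lower (24.4%), beside 5.09% higher and 22.9% lower of all 11758 genes compared. The share of lower members was thus near that of all genes. The median difference was -0.47 for the members and -0.53 for all genes. That shift moved with the scaling. Median-ratio scaling put the median of all genes at 0.00 and that of the members at 0.09. It gave 31 higher and 21 lower members, against 28 and 21 with upper-quartile scaling and 11 and 48 with the same sum. Under all 4 scalings 11 members were higher and 21 were lower.

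Over the whole span, F1 against 6 mm, 24 of 164 members were higher in F1 (14.6%) and 38 were lower (23.2%). Of all 12482 genes compared, 7.45% were higher and 32.8% were lower. The median difference was -0.27 for the members and -0.64 for all genes. With median-ratio scaling it was 0.32 for the members and -0.01 for all genes. The split was 17 higher and 55 lower with the same sum, 45 and 21 with median-ratio scaling and 41 and 22 with upper-quartile scaling. Under all 4 scalings 17 members were higher and 21 were lower. The 3 comparisons share libraries, so their counts are given side by side and not combined. The counts per class and per list below stand beside the shares of all genes and were not tested against them. Those shares were 7.64% higher and 10.8% lower in F5 against 6 mm, and 5.09% and 22.9% in F1 against F5. In F1 against 6 mm they were 7.45% and 32.8%. They are given as deposited only, so counts under the other scalings have no share of all genes beside them. Likewise, not called and within 2-fold below refer to the values as deposited, and other scalings brought further members to a call.

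**Figure D2:**
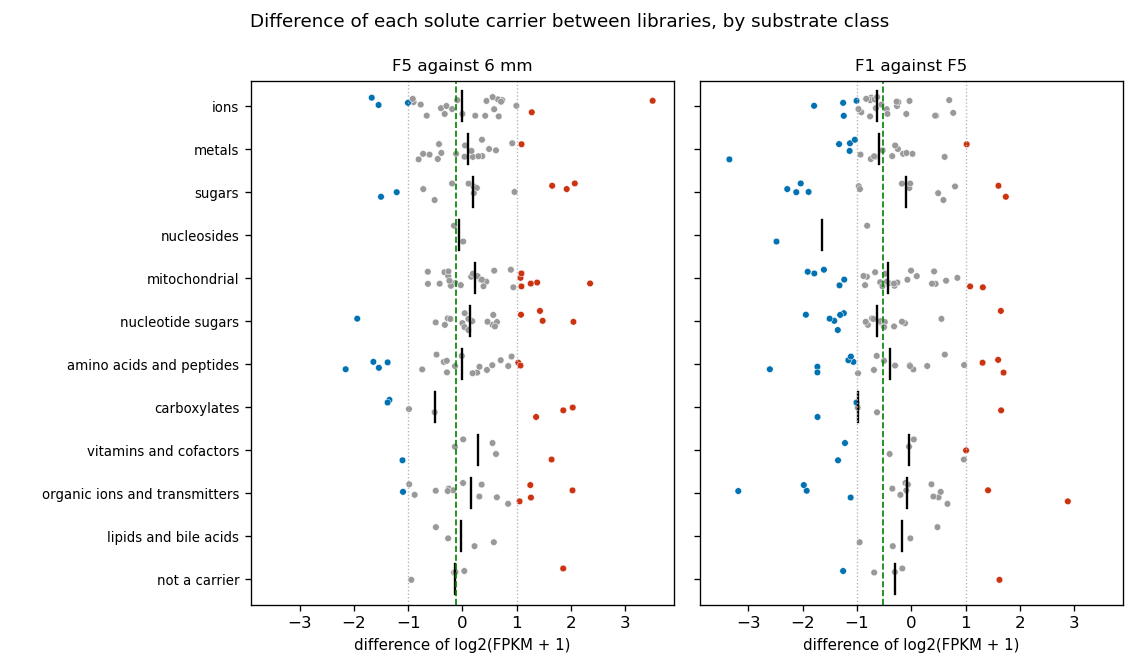
Difference of log2(FPKM + 1) for each solute carrier by substrate class, F5 against 6 mm on the left and F1 against F5 on the right, with 1 library per stage. Red points are at least 2-fold higher and blue points at least 2-fold lower (dotted lines), black bars are class medians, and the green dashed line is the median of all genes, -0.13 on the left and -0.53 on the right.

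Among the 26 carriers of inorganic ions the leading cation-chloride cotransporter differed between stages. SLC12A2, the sodium, potassium and chloride importer NKCC1 (chromosome Z, 56515930 to 56567793, plus strand), had an FPKM of 17.9 at 6 mm, 213 at F5 and 106 at F1. It was lowest before selection and highest in F5, 11.9-fold higher in F5 than in 6 mm (11.1 to 12.8) and 5.9-fold higher in F1 than in 6 mm (5.5 to 6.34). No other member differed as much between F5 and 6 mm on the log2(FPKM + 1) scale, and its lower value in F1 than in F5 was a call that ended under some scalings. SLC12A4 and SLC12A7 are potassium and chloride exporters of the same family. SLC12A7 had 10.1 at 6 mm, 2.49 at F5 and 1.09 at F1, and was 4.06-fold lower in F5 than in 6 mm (3.48 to 4.77). SLC12A4 had 43.4 at 6 mm, 32.7 at F5 and 20.5 at F1, and it was 2.12-fold lower in F1 than in 6 mm (1.99 to 2.26), a call that also ended under some scalings. Within the family, 6 members in all, SLC12A4 held 48.7% of the summed FPKM in 6 mm, and SLC12A2 held 81.8% in F5 and 76.3% in F1.

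The phosphate carriers peaked in F5. SLC20A2 (PiT-2), which imports phosphate with sodium, had an FPKM of 9.59 at 6 mm, 24.6 at F5 and 12.6 at F1, and was 2.57-fold higher in F5 than in 6 mm (2.33 to 2.85). SLC20A1 (PiT-1) of the same family had 30.1 at 6 mm, 61 at F5 and 16.9 at F1. It was 3.6-fold lower in F1 than in F5 (3.25 to 4.0), while its difference between F5 and 6 mm was 0.99 on the log2(FPKM + 1) scale and not called. SLC8B1, the sodium and calcium exchanger of mitochondria, had 29.2 at 6 mm, 39.4 at F5 and 16.1 at F1 and was 2.45-fold lower in F1 than in F5 (2.18 to 2.76), under 2-fold in some scalings. SLC9A7, a sodium and proton exchanger of the Golgi, had 13.5 at 6 mm, 7.48 at F5 and 4.8 at F1.

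As deposited, several other ion exchangers stayed within 2-fold. SLC26A11, a sulfate carrier, had 17.3 at 6 mm, 16.1 at F5 and 26.8 at F1. SLC24A3, a potassium-dependent sodium and calcium exchanger, had 9.15 at 6 mm, 15.9 at F5 and 8.99 at F1, and SLC26A7, an anion exchanger, 7.0 at 6 mm, 11.7 at F5 and 6.51 at F1. None of these 3 was called in any comparison as deposited. Under median-ratio and upper-quartile scaling SLC26A11 passed the limit in F1 against 6 mm, higher in F1. Others of the class were lower in F1. SLC4A4, a sodium and bicarbonate cotransporter, had 2.87 at 6 mm, 1.05 at F5 and 0.155 at F1, 18.5-fold lower in F1 than in 6 mm (11.4 to 32.2). SLC26A8 was 3.0-fold lower in F1 than in 6 mm (2.3 to 3.96), and SLC24A5 was 3.0-fold lower in F1 than in 6 mm (2.01 to 4.59), and both of these calls ended under some scalings. MYEF2 on the opposite strand overlaps SLC24A5, with 22.4 at 6 mm, 15.4 at F5 and 10.4 at F1, so the value of SLC24A5 is uncertain. SLC4A11 had 173 reads in 6 mm, 60 in F5 and none in F1, and was at least 54.4-fold lower in F1 than in 6 mm set against a floor of 3 reads (43.8-fold by the exact limit). In the whole class 2 of 25 members compared were higher and 3 lower in F5 than in 6 mm, 0 were higher and 4 lower in F1 than in F5, and 1 was higher and 8 lower in F1 than in 6 mm. The class median was within 0.01 of 0 for F5 against 6 mm, where its sign turned with the scaling. For F1 against F5 it was -0.63, beside -0.53 for all genes. It was -0.057 with median-ratio scaling and -0.096 with upper-quartile scaling. The summed FPKM of the class was 274 at 6 mm, 512 at F5 and 287 at F1.

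Beta subunits of the pump that keeps up the sodium gradient were compared as well. ATP1B1 had an FPKM of 386 at 6 mm, 796 at F5 and 648 at F1, and its call in F5 against 6 mm ended under the same-sum scaling. ATP1B3 had 34.4 at 6 mm, 46.5 at F5 and 90.3 at F1, and was 2.62-fold higher in F1 than in 6 mm (2.36 to 2.91). ATP1B4, a beta-type subunit, was 10.4-fold lower in F5 than in 6 mm (6.03 to 19.5), with 5.0 at 6 mm, 0.48 at F5 and 0.103 at F1.

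**Figure D3:**
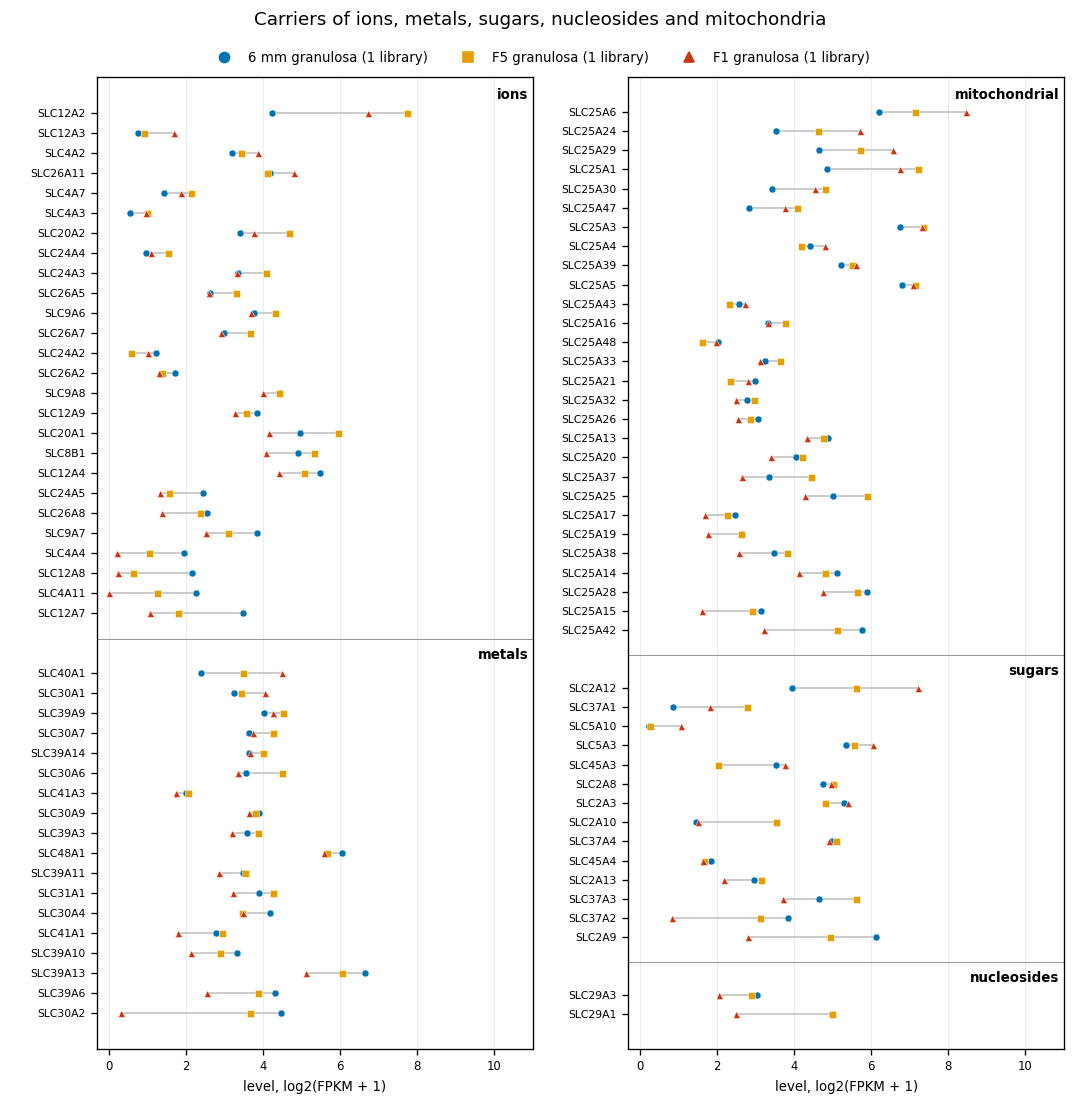
Level of each carrier of ions, metals, mitochondrial substrates, sugars and nucleosides as log2(FPKM + 1) in the 3 libraries (circle 6 mm, square F5, triangle F1), ordered within a class by the difference between F1 and 6 mm. SLC12A2 stands out among ions with an FPKM of 213 in F5, SLC30A2 among metals with an FPKM of 0.251 in F1, and SLC2A12 and SLC2A9 form the 2 ends of the sugar class.

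For metals, the carriers that export zinc are the SLC30 family and those that bring it into the cytosol are the SLC39 family. SLC30A2, which loads zinc into vesicles, had an FPKM of 21.3 at 6 mm, 11.8 at F5 and 0.251 at F1, from 4 reads in F1. It was 46.8-fold lower in F1 than in F5 (18 to 174) and 85-fold lower in F1 than in 6 mm (32.9 to 313), and F1 lay far below both other libraries. SLC30A1, the zinc exporter of the plasma membrane, had 8.49 at 6 mm, 9.83 at F5 and 15.6 at F1 and was not called in any comparison as deposited. SLC30A6 of the Golgi had 10.9 at 6 mm, 21.5 at F5 and 9.28 at F1, and was 2.31-fold lower in F1 than in F5 (2.01 to 2.67), under 2-fold in some scalings. SLC30A4 had 17.1 at 6 mm, 9.92 at F5 and 10.1 at F1.

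The zinc importers that were called in F1 against 6 mm were all lower in F1. SLC39A13, which releases zinc from the early secretory pathway, was the most abundant zinc carrier, with 99.4 at 6 mm, 65 at F5 and 33.5 at F1. It was 2.97-fold lower in F1 than in 6 mm (2.78 to 3.16). SLC39A6 had 18.9 at 6 mm, 13.8 at F5 and 4.88 at F1 and was 3.88-fold lower in F1 than in 6 mm (3.24 to 4.67). SLC39A10 had 9.12 at 6 mm, 6.38 at F5 and 3.41 at F1, and SLC39A9 15.3 at 6 mm, 21.8 at F5 and 18.3 at F1. Of these calls in F1 against 6 mm only that of SLC39A6 held under all 4 scalings, while those of SLC39A13 and SLC39A10 ended under some. The summed FPKM of the 7 SLC39 members was 175 at 6 mm, 146 at F5 and 86.1 at F1, and that of the 6 SLC30 members was 83.2 at 6 mm, 84.0 at F5 and 59.0 at F1.

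Carriers of iron, haem, copper and magnesium had no common direction. SLC40A1, ferroportin, the iron exporter of the plasma membrane, had an FPKM of 4.22 at 6 mm, 10.1 at F5 and 21.5 at F1. It was higher at each later stage, 2.39-fold higher in F5 than in 6 mm (1.94 to 2.96), 2.13-fold higher in F1 than in F5 (1.85 to 2.46) and 5.1-fold higher in F1 than in 6 mm (4.22 to 6.21), and only the last of these calls held under all 4 scalings. SLC48A1, which moves haem out of lysosomes, had 65.5 at 6 mm, 49.8 at F5 and 46.8 at F1. SLC31A1, the copper importer CTR1, had 13.9 at 6 mm, 18.1 at F5 and 8.28 at F1, and SLC41A1, a magnesium carrier, 5.85 at 6 mm, 6.69 at F5 and 2.5 at F1. Both of these were more than 2-fold lower in F1 than in F5 and under 2-fold in some scalings. In the class of 18 members 1 was higher and 0 lower in F5 than in 6 mm, 1 higher and 5 lower in F1 than in F5, and 1 higher and 4 lower in F1 than in 6 mm.

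Other genes of metal handling were listed, and 16 of 18 had a value. Of 13 compared, 2 were higher and 2 lower in F5 than in 6 mm, and 2 were higher and 7 lower in F1 than in 6 mm. TF, the iron carrier transferrin, had an FPKM of 43.6 at 6 mm, 28 at F5 and 2.12 at F1, and was 20.5-fold lower in F1 than in 6 mm (16.2 to 26.4). TFRC, the receptor that takes it up, had 22.7 at 6 mm, 24.8 at F5 and 6.53 at F1, and was 3.8-fold lower in F1 than in F5 (3.18 to 4.56). FLVCR2, of the FLVCR family, had 0.794 at 6 mm, 29.1 at F5 and 2.68 at F1, and stood out in F5. It was 36.6-fold higher in F5 than in 6 mm (24 to 58.8). MT4, a metallothionein that binds zinc and copper, had 67.5 at 6 mm, 28.6 at F5 and 7.65 at F1, lower at each later stage. FLVCR1 had 5.5 at 6 mm, 16.6 at F5 and 5.57 at F1, and CP, the ferroxidase ceruloplasmin, 12.4 at 6 mm, 7.37 at F5 and 1.66 at F1. HEPH, a ferroxidase that works with ferroportin, had 20.9 at 6 mm, 16.9 at F5 and 9.71 at F1, and MTF1, the metal-sensing transcription factor, 14.6 at 6 mm, 7.44 at F5 and 5.63 at F1. The calls of HEPH and MTF1 in F1 against 6 mm ended under some scalings.

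The mitochondrial class was set by the SLC25 family number, and most carriers of that family lie in the inner membrane. SLC8B1 is counted among the ions. SLC25A6, an exchanger of ADP and ATP, had an FPKM of 72.8 at 6 mm, 140.4 at F5 and 352 at F1 (chromosome 1, 128508693 to 128512825, plus strand). It was 2.51-fold higher in F1 than in F5 (2.43 to 2.58) and 4.83-fold higher in F1 than in 6 mm (4.65 to 5.02). Its paralog SLC25A5 had 109.7 at 6 mm, 141 at F5 and 134 at F1, and SLC25A4 had 20.3 at 6 mm, 17 at F5 and 27.1 at F1. The order among the 3 exchangers thus changed, with SLC25A5 first in 6 mm, SLC25A5 and SLC25A6 side by side in F5, and SLC25A6 first in F1. Near-identical stretches of the 3 genes could split reads between them in the authors' counting.

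SLC25A1, which exports citrate to the cytosol, had 27.9 at 6 mm, 147 at F5 and 106 at F1. It was lowest in 6 mm and 5.25-fold higher in F5 than in 6 mm (4.93 to 5.6). An unnamed gene of the same strand overlaps its model, with an FPKM of 18.6 at 6 mm, 44.6 at F5 and 24.0 at F1, so the reads cannot be assigned with certainty. SLC25A3, the phosphate carrier, had 107 at 6 mm, 160.4 at F5 and 160.0 at F1, without a call in any comparison as deposited.

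Several smaller carriers of the family were higher at later stages. SLC25A24, which exchanges ATP-magnesium for phosphate, had 10.5 at 6 mm, 23.5 at F5 and 51 at F1, 4.84-fold higher in F1 than in 6 mm (4.42 to 5.3). SLC25A29, a carrier of basic amino acids, had 23.9 at 6 mm, 51.1 at F5 and 93 at F1, 3.9-fold higher in F1 than in 6 mm (3.48 to 4.38). These calls in F1 against 6 mm held under all 4 scalings. SLC25A30 had 9.81 at 6 mm, 27 at F5 and 22.5 at F1 and SLC25A47 6.09 at 6 mm, 15.9 at F5 and 12.6 at F1, and both were called higher in F5 than in 6 mm under all 4 scalings.

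Others were lowest in F1. SLC25A42, which brings coenzyme A into mitochondria, had 53.3 at 6 mm, 33.9 at F5 and 8.31 at F1, and was 4.08-fold lower in F1 than in F5 (3.52 to 4.75) and 6.42-fold lower in F1 than in 6 mm (5.57 to 7.44). SLC25A37, mitoferrin 1, the iron importer, had 9.25 at 6 mm, 20.8 at F5 and 5.31 at F1, with its peak in F5, and was 3.91-fold lower in F1 than in F5 (3.03 to 5.09). SLC25A25, another exchanger of ATP-magnesium and phosphate, had 31.2 at 6 mm, 58.7 at F5 and 18.6 at F1, and was 3.16-fold lower in F1 than in F5 (2.82 to 3.55). SLC25A15, the ornithine carrier, had 7.79 at 6 mm, 6.57 at F5 and 2.03 at F1, and its calls in F1 ended under some scalings.

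Over the 28 members 6 were higher and 0 lower in F5 than in 6 mm, 2 higher and 5 lower in F1 than in F5, and 5 higher and 3 lower in F1 than in 6 mm. The class median was 0.24 for F5 against 6 mm, positive under all 4 scalings, and -0.43 for F1 against F5, where the sign turned with the scaling. The summed FPKM was 727 at 6 mm, 1075 at F5 and 1161 at F1. That was 22.8% of the members' sum in 6 mm, 21.8% in F5 and 22.5% in F1. Of the 7 listed genes of the pyruvate carrier and the sideroflexins, MPC2, a subunit of the pyruvate carrier, was the one higher in F5 than in 6 mm, with 82.4 at 6 mm, 197 at F5 and 142 at F1, 2.39-fold higher in F5 than in 6 mm (2.21 to 2.58).

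Among the 14 sugar carriers kept after the names left out by the rule, the leading member differed between 6 mm and F1. SLC2A12, the facilitative carrier GLUT12 (chromosome 3, 55492475 to 55523798, plus strand), had an FPKM of 14.4 at 6 mm, 47.5 at F5 and 147 at F1. It was higher at each later stage, 3.29-fold higher in F5 than in 6 mm (3.08 to 3.53), 3.09-fold higher in F1 than in F5 (2.97 to 3.21) and 10.2-fold higher in F1 than in 6 mm (9.56 to 10.8). SLC2A9, known in mammals as the urate carrier GLUT9 (chromosome 4, 77947056 to 78040653, plus strand), ran the other way, with 69.1 at 6 mm, 29.3 at F5 and 5.98 at F1. It was 2.36-fold lower in F5 than in 6 mm (2.26 to 2.47), 4.9-fold lower in F1 than in F5 (4.47 to 5.38) and 11.6-fold lower in F1 than in 6 mm (10.6 to 12.6). All calls of these 2 genes held under all 4 scalings.

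SLC2A10, GLUT10, appeared mainly in F5, with 1.75 at 6 mm, 10.6 at F5 and 1.82 at F1, 6.02-fold higher in F5 than in 6 mm (4.4 to 8.39) and 5.81-fold lower in F1 than in F5 (4.23 to 8.12). As deposited, SLC2A3, an importer of glucose, stayed within 2-fold, with 38.6 at 6 mm, 26.7 at F5 and 40.9 at F1. So did SLC2A8, with 25.7 at 6 mm, 31.1 at F5 and 30.3 at F1. Under median-ratio and upper-quartile scaling SLC2A3 passed the limit in F1 against F5, higher in F1. SLC5A3, which imports myo-inositol with sodium, had 39.4 at 6 mm, 45.7 at F5 and 64.9 at F1 and was not called as deposited. SLC45A3 was the reverse of SLC2A10, with 10.5 at 6 mm, 3.06 at F5 and 12.6 at F1, 3.43-fold lower in F5 than in 6 mm (2.99 to 3.94) and 4.12-fold higher in F1 than in F5 (3.6 to 4.72).

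The SLC37 family includes exchangers of sugar phosphates in the endoplasmic reticulum. SLC37A4, the glucose 6-phosphate carrier that gluconeogenesis uses, stayed within 2-fold, with 30.5 at 6 mm, 33 at F5 and 29.2 at F1. SLC37A2 had 13.2 at 6 mm, 7.61 at F5 and 0.768 at F1, and was 9.91-fold lower in F1 than in F5 (6.09 to 17.1) and 17.2-fold lower in F1 than in 6 mm (10.7 to 29.4). SLC37A3 had 23.9 at 6 mm, 47.3 at F5 and 12 at F1, and was 3.93-fold lower in F1 than in F5 (3.58 to 4.32). SLC37A1 was low, with 0.798 at 6 mm, 5.81 at F5 and 2.54 at F1, and 7.28-fold higher in F5 than in 6 mm (4.48 to 12.5). SLC5A10, near the lower limit of the choice, had 0.183 at 6 mm, 0.194 at F5 and 1.09 at F1. Of the 13 sugar carriers compared in F5 against 6 mm, 3 were higher and 2 lower. Of all 14, 2 were higher and 4 lower in F1 than in F5, and 1 was higher and 2 lower in F1 than in 6 mm. Each of these calls held under all 4 scalings.

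Both nucleoside carriers were lowest in F1. SLC29A1, the equilibrative carrier ENT1 of the plasma membrane (chromosome 3, 29637259 to 29654613, minus strand), had 30.4 at 6 mm, 30.7 at F5 and 4.67 at F1. F5 and 6 mm did not differ beyond counting error, and it was 6.57-fold lower in F1 than in F5 (5.53 to 7.85). SLC29A3, ENT3 of lysosomes, had 7.17 at 6 mm, 6.33 at F5 and 3.18 at F1, and was not called. The summed FPKM of both was 37.6 at 6 mm, 37 at F5 and 7.85 at F1.

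The SLC35 family carries nucleotide sugars and related substrates into the Golgi and the endoplasmic reticulum, where glycans are built, and several members have no settled substrate. SLC35D1, which carries UDP-glucuronate and UDP-N-acetylgalactosamine for proteoglycan chains, had 44.9 at 6 mm, 127 at F5 and 46.8 at F1. It peaked in F5, 2.82-fold higher in F5 than in 6 mm (2.66 to 2.99) and 2.71-fold lower in F1 than in F5 (2.55 to 2.87), the second of which ended under some scalings. SLC35B4, a carrier of UDP-xylose and UDP-N-acetylglucosamine, had 54.5 at 6 mm, 116 at F5 and 29.5 at F1, and was 3.94-fold lower in F1 than in F5 (3.61 to 4.29). SLC35F2 also peaked in F5, with 44.2 at 6 mm, 185 at F5 and 103 at F1, 4.2-fold higher in F5 than in 6 mm (3.97 to 4.44).

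Other members of the family ran one way over the series. SLC35E4 had 10.9 at 6 mm, 30.9 at F5 and 99.2 at F1, and was 9.14-fold higher in F1 than in 6 mm (7.11 to 11.9). Its gene model runs only from 10779334 to 10779759 on chromosome 15, so its level is per length of that short model. SLC35G1 had 33.1 at 6 mm, 7.89 at F5 and 2.14 at F1, and was 15.5-fold lower in F1 than in 6 mm (13.4 to 18). Both moved in the same direction in F5 against 6 mm and in F1 against F5, with calls that held under all 4 scalings. SLC35B1, of the endoplasmic reticulum, had 110.0 at 6 mm, 162 at F5 and 114 at F1 without a call, and SLC35F3 had 22.2 at 6 mm, 33.4 at F5 and 12.9 at F1. Of 20 members 4 were higher and 1 lower in F5 than in 6 mm, 1 higher and 6 lower in F1 than in F5, and 2 higher and 5 lower in F1 than in 6 mm. The summed FPKM was 548 at 6 mm, 913 at F5 and 606 at F1.

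**Figure D4:**
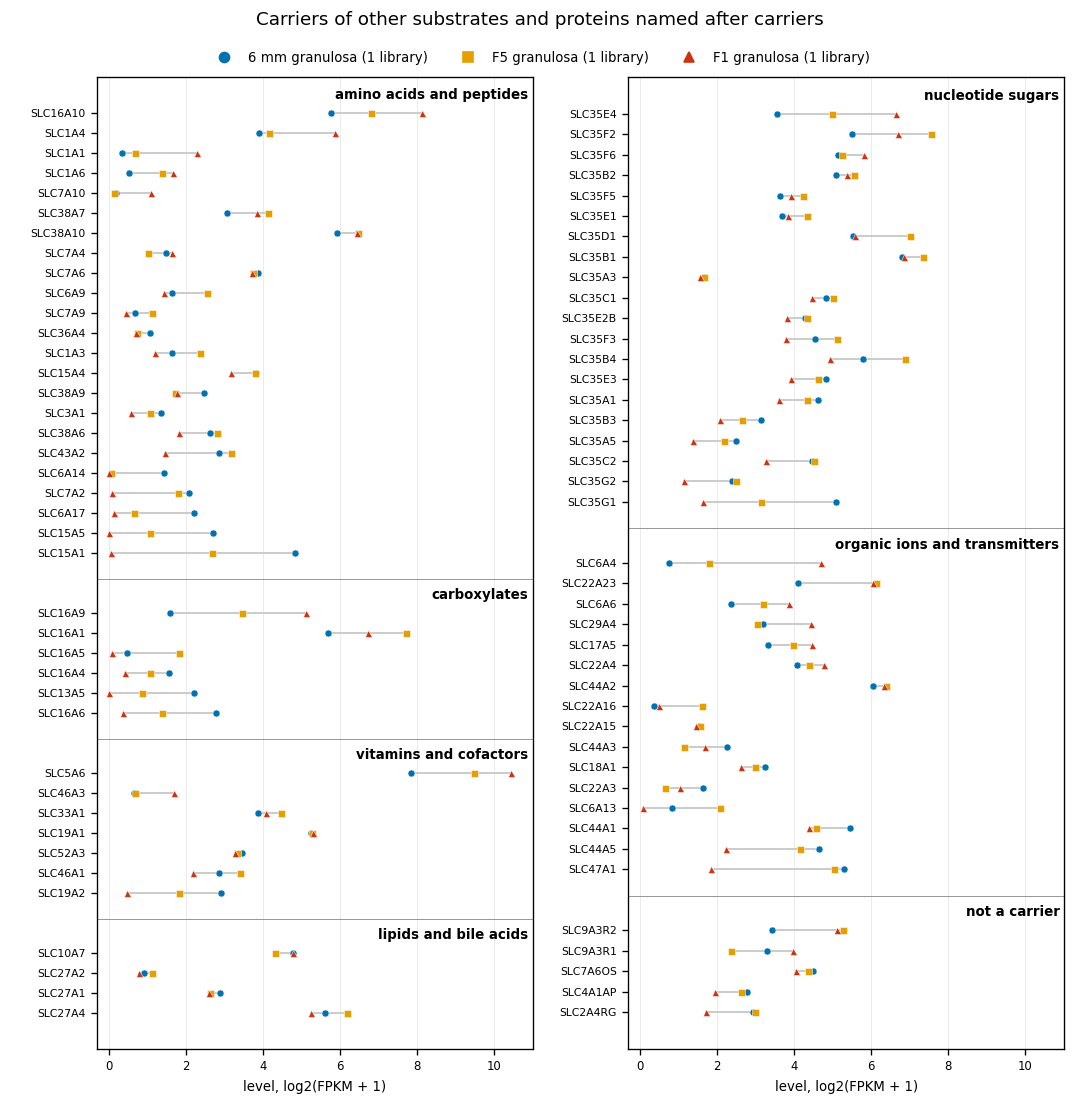
Level of the carriers of amino acids and peptides, carboxylates, vitamins, lipids, nucleotide sugars, organic ions and transmitters, and of the 5 proteins that only carry an SLC symbol, as log2(FPKM + 1) in the 3 libraries (circle 6 mm, square F5, triangle F1), ordered within a class by the difference between F1 and 6 mm. SLC5A6 lies at the right edge with 1399 in F1, and SLC15A1 spans the widest range, with 27.4 at 6 mm, 5.38 at F5 and 0.0491 at F1.

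The peptide carrier family members SLC15A1 and SLC15A5 were lower in F1 than in 6 mm, and the amino acid carriers SLC16A10 and SLC1A4 were higher. SLC15A4, also of the peptide carrier family, had 13.1 at 6 mm, 13.0 at F5 and 8.01 at F1 and was not called. It made 99.4% of the summed FPKM of that family in F1. SLC15A1, the proton-coupled peptide carrier PEPT1 (chromosome 1, 144057536 to 144081570, plus strand), had an FPKM of 27.4 at 6 mm, 5.38 at F5 and 0.0491 at F1, the last from 2 reads. It was 5.09-fold lower in F5 than in 6 mm (4.4 to 5.9) and 109.6-fold lower in F1 than in F5 (29.98 to 911), and it had the largest difference between F1 and 6 mm of all members on the log2(FPKM + 1) scale, at -4.76. SLC15A5 of the same family had 171 reads in 6 mm, 32 in F5 and none in F1, at least 53.8-fold lower in F1 than in 6 mm set against the floor (43.3-fold by the exact limit). In contrast SLC16A10, the carrier TAT1 of aromatic amino acids, had 53.7 at 6 mm, 111 at F5 and 277 at F1, and was 2.5-fold higher in F1 than in F5 (2.42 to 2.58) and 5.15-fold higher in F1 than in 6 mm (4.94 to 5.37). SLC1A4, the exchanger ASCT1 of alanine, serine and cysteine, was not called in F5 against 6 mm and was higher in F1, with 13.9 at 6 mm, 17 at F5 and 57.4 at F1, 3.38-fold higher in F1 than in F5 (3.08 to 3.72). SLC1A1, a glutamate carrier, had 0.27 at 6 mm, 0.6 at F5 and 3.85 at F1. SLC6A14, a broad amino acid carrier, had 49 reads in 6 mm, 1 in F5 and none in F1, and it completes the 4 members without reads in a library, all of them in F1.

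SLC38A10 was abundant and not called as deposited, with 59.5 at 6 mm, 87.5 at F5 and 85.9 at F1. SLC38A7, a glutamine carrier of lysosomes, had 7.4 at 6 mm, 16.6 at F5 and 13.3 at F1, and its call in F5 against 6 mm ended under the same-sum scaling. SLC43A2, the carrier LAT4 of large neutral amino acids, had 6.32 at 6 mm, 8.09 at F5 and 1.74 at F1, and was 4.64-fold lower in F1 than in F5 (3.34 to 6.58). Of 23 members 2 were higher and 4 lower in F5 than in 6 mm, 3 higher and 6 lower in F1 than in F5, and 4 higher and 6 lower in F1 than in 6 mm, each out of 20 to 22 that could be compared. The class median was -0.01 for F5 against 6 mm and -0.40 for F1 against F5, and both signs turned with the scaling.

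Among carboxylate carriers SLC16A1, MCT1, which moves lactate and pyruvate with a proton, had 50.4 at 6 mm, 209 at F5 and 105 at F1. It was 4.15-fold higher in F5 than in 6 mm (3.92 to 4.39), and its step between F1 and F5 was -0.99 on the log2(FPKM + 1) scale and not called. BSG, the chaperone that brings MCT1 to the membrane, had 211 at 6 mm, 358 at F5 and 218 at F1 without a call. SLC16A9, known in mammals as a carrier of carnitine and creatine, had 2.02 at 6 mm, 9.95 at F5 and 33.5 at F1, and was 4.92-fold higher in F5 than in 6 mm (3.7 to 6.63), 3.37-fold higher in F1 than in F5 (2.94 to 3.87) and 16.6-fold higher in F1 than in 6 mm (12.7 to 21.9). SLC16A6 had 5.82 at 6 mm, 1.62 at F5 and 0.303 at F1, 3.59-fold lower in F5 than in 6 mm (2.55 to 5.15). SLC13A5, the citrate importer of the plasma membrane, had 159 reads in 6 mm, 34 in F5 and none in F1, at least 50.03-fold lower in F1 than in 6 mm set against the same floor (40.2-fold by the exact limit). Of the 7 members of the class 3 were higher and 2 lower in F5 than in 6 mm, and of the 5 compared 1 was higher and 2 lower in F1 than in F5, and of the 6 compared 2 were higher and 4 lower in F1 than in 6 mm.

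The other carriers of vitamins and cofactors lay far below SLC5A6. SLC19A1, the reduced folate carrier, stayed within 2-fold, with 37.1 at 6 mm, 37.4 at F5 and 38.7 at F1. SLC52A3, a riboflavin carrier, had 10.02 at 6 mm, 9.0 at F5 and 8.73 at F1, and SLC33A1, which takes acetyl-CoA into the endoplasmic reticulum, 13.6 at 6 mm, 21.3 at F5 and 15.9 at F1. SLC46A1, the proton-coupled folate carrier, had 6.28 at 6 mm, 9.69 at F5 and 3.59 at F1. SLC19A2, a thiamine carrier, had 6.58 at 6 mm, 2.52 at F5 and 0.384 at F1, and was 6.58-fold lower in F1 than in F5 (4.46 to 10.01) and 17.1-fold lower in F1 than in 6 mm (11.9 to 25.7). With SLC5A6 the class has 7 members, and of the 6 compared 1 was higher and 1 lower in F5 than in 6 mm. Of all 7, 1 was higher and 2 lower in F1 than in F5, and 2 were higher and 1 lower in F1 than in 6 mm. Without SLC5A6 the summed FPKM of the class was 74.1 at 6 mm, 80.6 at F5 and 69.6 at F1.

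Among carriers of organic ions and transmitters SLC6A4, the serotonin carrier (chromosome 19, 6201884 to 6214012, minus strand), went furthest upward. It had an FPKM of 0.682 at 6 mm, 2.49 at F5 and 24.8 at F1, and was 9.96-fold higher in F1 than in F5 (7.12 to 14.3) and 36.3-fold higher in F1 than in 6 mm (20.1 to 73.4), which is the largest positive difference of all members on the log2(FPKM + 1) scale in both comparisons. SLC6A6, the taurine importer, had 4.15 at 6 mm, 8.22 at F5 and 13.6 at F1, and was 3.29-fold higher in F1 than in 6 mm (2.7 to 4.04). SLC22A23 had 16.2 at 6 mm, 69.1 at F5 and 64.8 at F1, low before selection and not called in F1 against F5, 4.27-fold higher in F5 than in 6 mm (3.96 to 4.6). SLC29A4, a monoamine carrier, had 8.2 at 6 mm, 7.16 at F5 and 20.8 at F1, and was 2.9-fold higher in F1 than in F5 (2.47 to 3.42).

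SLC47A1, MATE1, which exports organic cations against protons, had 38.4 at 6 mm, 31.6 at F5 and 2.58 at F1, and was 12.2-fold lower in F1 than in F5 (9.91 to 15.3). Its gene model in the files spans 7 other genes, among them FAM101B, with 35.6 at 6 mm, 10.4 at F5 and 1.10 at F1, GLOD4, with 56.8 at 6 mm, 44.7 at F5 and 27.2 at F1, and VPS53, with 24.1 at 6 mm, 22.2 at F5 and 26.2 at F1, so its value is uncertain. Of the 7, RNMTL1 and FAM57A lie on its strand, RNMTL1 with 12.7 at 6 mm, 14.0 at F5 and 9.98 at F1 and FAM57A with 3.66 at 6 mm, 3.99 at F5 and 2.41 at F1. The genes of the choline carrier family differed among themselves: SLC44A2 had 65 at 6 mm, 83.3 at F5 and 79.8 at F1, SLC44A1 42.9 at 6 mm, 22.9 at F5 and 19.8 at F1 and SLC44A5 24.1 at 6 mm, 16.8 at F5 and 3.69 at F1. SLC44A5 was 4.56-fold lower in F1 than in F5 (3.81 to 5.48). Of 16 members 4 were higher and 1 lower in F5 than in 6 mm, and 2 higher and 4 lower in F1 than in F5. Of the 14 compared over the whole span 5 were higher and 3 lower in F1 than in 6 mm.

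As deposited, no member of the lipid and bile acid class, made of SLC10A7 and the SLC27 genes, was called in any comparison. SLC27A4, a fatty acid carrier with acyl-CoA synthetase activity, had 47.8 at 6 mm, 71.9 at F5 and 36.7 at F1, its relative SLC27A1 6.35 at 6 mm, 5.12 at F5 and 5.06 at F1, and SLC10A7 26.7 at 6 mm, 18.7 at F5 and 26.6 at F1. The 5 members that only bear a carrier's name include the scaffold proteins of sodium and proton exchangers, SLC9A3R2 and SLC9A3R1. SLC9A3R2 had 9.73 at 6 mm, 37.8 at F5 and 33.7 at F1, and was 3.89-fold higher in F5 than in 6 mm (3.51 to 4.32). SLC9A3R1 had 8.82 at 6 mm, 4.11 at F5 and 14.8 at F1, and was 3.59-fold higher in F1 than in F5 (2.89 to 4.51). SLC7A6OS had 21.5 at 6 mm, 19.6 at F5 and 15.7 at F1, SLC4A1AP 5.91 at 6 mm, 5.21 at F5 and 2.87 at F1, and SLC2A4RG 6.7 at 6 mm, 6.88 at F5 and 2.3 at F1.

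**Figure D5:**
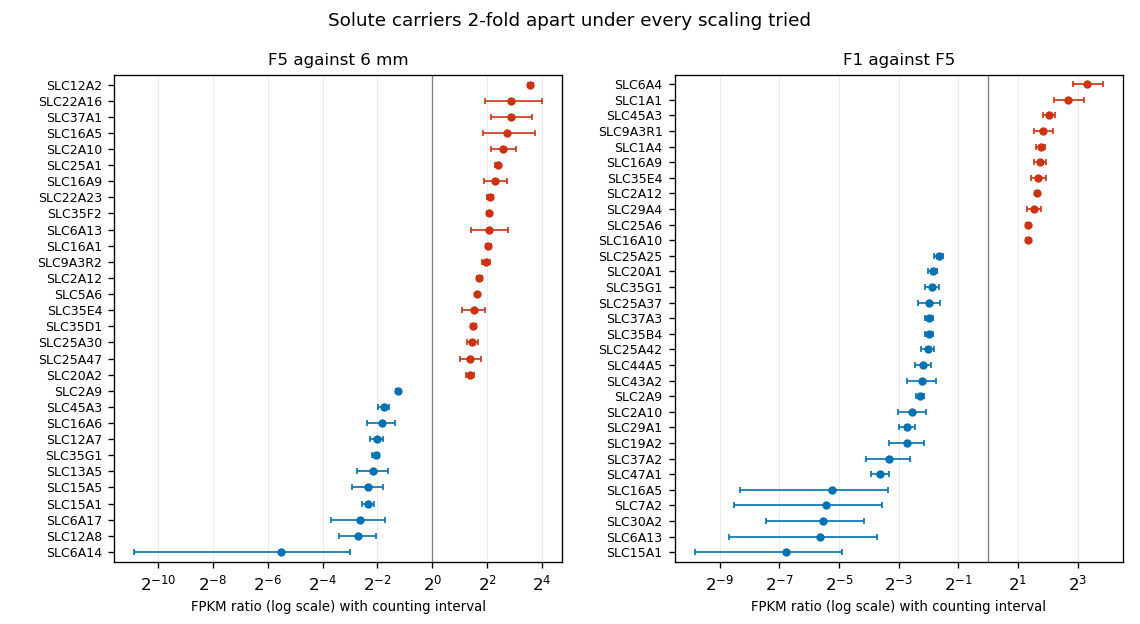
FPKM ratio, on a log axis, of the solute carriers called under all 4 scalings, F5 against 6 mm on the left and F1 against F5 on the right, with bars for exact 95% counting intervals (red higher, blue lower). SLC12A2 has the highest ratio on the left at 11.9 and SLC6A4 on the right at 9.96, and SLC4A11, without reads in F1, is not drawn.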

How the data were processed

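RNA of granulosa cells from 3 stages was analysed, 1 library per stage. Per the submitters' processing notes, TopHat2 2.0.12 and HTSeq 0.6.1 were used. The genome build and whether strand was counted are not given in the sources used here. The authors deposited FPKM values per gene, with 2 lines per file that hold no value and were not used. For all 17019 genes above 0, the smallest whole reads and gene length that fit the FPKM values were taken (tolerance 1e-09). A factor shared by the reads and the length would be lost, so reads may be understated and intervals too wide for some genes. These reads came to 94.7% of the total in 6 mm, 93.8% in F5 and 94.8% in F1. They gave the exact 95% intervals and the floor of 3 reads. Comparisons used log2(FPKM + 1), which understates differences of low genes. Alternatives were pseudocounts of 0.1 and 5, filters at none and 5, and 3 other scalings. Simulated data were used to test the library totals, the ratio of reads to gene length, intervals from the simulated reads, and the calls. They could not show whether the reads taken were too few, since only their ratio to length was compared. Python 3.11.15, numpy 2.4.6, pandas 2.3.3, scipy 1.17.1 and matplotlib 3.10.9 were used. Of the member symbols, 167 match RefSeq's table for GRCg7b, used for names only, and SLC2A3 matches as a synonym of SLC2A14. Classes follow the family number of the symbol, except for genes set one by one, among them SLC5A6, SLC16A10, SLC29A4, several SLC6 genes and the proteins that are no carriers. A few genes are counted but not reported here by name. Of the members, 18 are overlapped by another gene (of those described, SLC2A10, SLC5A10, SLC7A6OS, SLC9A3R1, SLC19A1, SLC24A5, SLC25A1, SLC25A3, SLC30A1, SLC41A1 and SLC47A1), and without strand their reads cannot be told apart with certainty.

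The members, classes, marker lists and partner lists were chosen with earlier results of these data known. Genes named were, per class, up to 6 members that differed most and reached an FPKM of 5 and up to 3 with the highest levels (10 and 5 for ions, metals and mitochondria), all members at an FPKM of 5 or more with an 8-fold difference on the log2(FPKM + 1) scale, those at the limit of the choice, and partner genes at an FPKM of 10 or more with a call. Members named outside that rule, such as SLC1A1, SLC2A3, SLC2A8, SLC4A4, SLC4A11, SLC6A14, SLC13A5, SLC15A4, SLC24A5, SLC25A4, SLC26A8, SLC37A4 and SLC45A3, single marker genes, and the genes BSG, ATP1B4, FAM101B, FAM57A, GLOD4, MYEF2, RNMTL1 and VPS53, were chosen after their values were seen.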

Additional observations from a re-analysis of the deposited data

How the results depend on the processing

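With a pseudocount of 5 FPKM, 15 members were higher and 4 lower in F5 than in 6 mm, 17 were lower in F1 than in F5, and 16 were lower in F1 than in 6 mm. With a filter at an FPKM of 5, 8 were lower in F5 than in 6 mm and 25 lower in F1 than in 6 mm. Median-ratio scaling gave 31 higher and 21 lower in F1 than in F5, and 45 higher and 21 lower in F1 than in 6 mm. Upper-quartile scaling gave 28 higher and 21 lower in F1 than in F5, and 41 higher and 22 lower in F1 than in 6 mm. The pseudocount and the filter act on members with low values, and the scalings multiply a library as a whole. The other counts stayed within 1.5 times under the alternatives run, among them the count of members whose counting interval lay wholly past 2-fold. No called difference of a named member changed its direction under any of them. No paired analysis was possible because each stage had 1 library, and for the same reason no library could be left out. Low members may rest on few reads. Among the smallest whole reads that fit, the fewest behind a member's FPKM of at least 1 were 7 in F1. They were 17 in F5 and 25 in 6 mm, and the true reads may be more.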

Other observations

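Among the other listed gene groups are the carbonic anhydrases, which supply protons and bicarbonate to ion carriers. CA9, of the cell surface, had an FPKM of 84.2 at 6 mm, 50.9 at F5 and 2.72 at F1, and was 18.7-fold lower in F1 than in F5 (13.9 to 25.8). Of 4 carbonic anhydrases compared in F1 against 6 mm, 3 were lower. The V-ATPase, the proton pump of acidic organelles, had 0 of 14 genes called in F5 against 6 mm. In F1 against F5, 2 were higher and 1 lower. ATP6AP1, an accessory subunit, had 15.8 at 6 mm, 9.53 at F5 and 75.8 at F1, and was 7.95-fold higher in F1 than in F5 (6.38 to 10.01). ATP6V0B had 107 at 6 mm, 125 at F5 and 255 at F1, ATP6V1C2 12 at 6 mm, 9.79 at F5 and 3.26 at F1 and ATP6V1A 68.4 at 6 mm, 48.2 at F5 and 32.8 at F1, and their calls ended under some scalings. So did those of the sideroflexins SFXN2, with 10.8 at 6 mm, 10.8 at F5 and 3.53 at F1, and SFXN4, with 18.1 at 6 mm, 11.8 at F5 and 6.64 at F1.

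Organic anion transporters with the symbol SLCO are carriers too and lie outside the members because the symbol has no digit after SLC. SLCO3A1, which carries prostaglandins and thyroxine in mammals, had 1.12 at 6 mm, 2.77 at F5 and 35.1 at F1, and was 12.7-fold higher in F1 than in F5 (11.1 to 14.5). SLCO2B1 had 0.717 at 6 mm, 8.53 at F5 and 0.0169 at F1, and was 11.9-fold higher in F5 than in 6 mm (8.76 to 16.5). It was chosen after its values were seen. Of the calcium pumps, ATP2B4 of the plasma membrane had 78.3 at 6 mm, 25.8 at F5 and 22.2 at F1, and was 3.03-fold lower in F5 than in 6 mm (2.87 to 3.21). These calls of ATP6AP1, CA9, SLCO3A1, SLCO2B1 and ATP2B4 held under all 4 scalings.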
